A study of Rattus norvegicus with 3 samples.

Results

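The hypoxia-inducible factor (HIF) pathway was described through 9 genes in the rat common carotid artery, uninjured and after balloon injury. The genes were the alpha subunits Hif1a and Epas1, the oxygen-sensing prolyl hydroxylases Egln1 and Egln3, and the target genes Vegfa, Adm, Ankrd37, Bnip3 and Pdk1. They were chosen by name, and their probes were found by RefSeq accession. Of the 9 genes, 8 had a matched probe, and no probe matched Egln1, which was not analysed here. These 8 were set among the 13833 genes with a probe on the uninjured and day 21 arrays. Only 5 of them (Epas1, Egln3, Adm, Ankrd37 and Pdk1) had a probe that was on all 3 arrays, out of 7796 such genes.

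The samples were whole common carotid arteries of male Wistar rats. One group was uninjured, and the others were taken 7 and 21 days after balloon injury, a model of arterial repair in which the inner lining is removed and the wall is distended. Each group was 1 array, so there was no replicate, no test was possible and no p-value is given: each difference below is a difference between 2 arrays. The labels gave no age, and further arrays of the experiments named in the design text were not analysed here.

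HIF is a transcription factor made of an oxygen-labile alpha subunit and a stable beta subunit, ARNT. When oxygen is plentiful, prolyl hydroxylases of the EGLN family mark the alpha subunit for recognition by the VHL ubiquitin ligase and destruction, so HIF-1alpha is controlled to a large part at the protein level, which a transcript array does not measure. When oxygen is short, the alpha subunit persists, pairs with ARNT and binds short elements with the core ACGTG or GCGTG near genes of blood vessel growth, glucose use, mitochondrial turnover and its own feedback. In arteries the pathway is known for its part in growth of adventitial vessels and in the metabolism of wall and inflammatory cells.

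The promoter windows of the 4 genes that were 2-fold or more apart between day 21 and uninjured are shown first, because they let the letters be read beside the values that follow. Each is 300 bases of RefSeq sequence on GRCr8, read along the gene's own strand, from 250 bases before the annotated start to 50 bases after it. Capitals mark ACGTG or GCGTG on either strand, and the 2 strands overlap where CACGTG stands. The windows are chr16:53001257-53001556 on the plus strand for Ankrd37, chr6:98359648-98359947 on the plus strand for Hif1a, chr1:174179950-174180249 on the plus strand for Adm and chr6:77410966-77411265 on the minus strand for Egln3.
Ankrd37: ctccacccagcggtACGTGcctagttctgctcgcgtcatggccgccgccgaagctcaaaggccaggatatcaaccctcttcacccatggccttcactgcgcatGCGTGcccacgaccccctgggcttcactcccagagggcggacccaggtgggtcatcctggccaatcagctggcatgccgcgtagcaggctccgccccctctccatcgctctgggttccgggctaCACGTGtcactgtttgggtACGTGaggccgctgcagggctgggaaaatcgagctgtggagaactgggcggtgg
Hif1a: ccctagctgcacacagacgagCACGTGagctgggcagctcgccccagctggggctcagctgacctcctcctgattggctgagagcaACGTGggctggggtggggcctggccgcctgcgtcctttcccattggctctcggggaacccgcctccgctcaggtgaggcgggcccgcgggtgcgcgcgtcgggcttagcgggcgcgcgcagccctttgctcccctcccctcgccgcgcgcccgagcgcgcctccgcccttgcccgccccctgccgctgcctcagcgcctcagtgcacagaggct
Adm: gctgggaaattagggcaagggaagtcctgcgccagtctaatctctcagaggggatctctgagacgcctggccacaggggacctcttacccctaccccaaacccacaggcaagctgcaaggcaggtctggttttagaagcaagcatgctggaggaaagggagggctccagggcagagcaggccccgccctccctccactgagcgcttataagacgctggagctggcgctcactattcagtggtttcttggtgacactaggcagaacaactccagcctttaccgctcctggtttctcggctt
Egln3: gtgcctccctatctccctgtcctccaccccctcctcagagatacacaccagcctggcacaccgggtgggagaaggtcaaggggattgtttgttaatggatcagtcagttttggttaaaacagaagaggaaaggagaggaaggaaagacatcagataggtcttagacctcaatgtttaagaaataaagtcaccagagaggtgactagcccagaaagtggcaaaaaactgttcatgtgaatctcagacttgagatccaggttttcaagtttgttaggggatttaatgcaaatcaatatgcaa

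The Ankrd37 window held 5 matches, counted per strand, and that of Hif1a held 3. The windows of Adm and Egln3 held none, which says only that these letters are not in this window. Among the other members, the windows of Bnip3 and Pdk1 held 4 matches each and that of Egln1 held 2, while the window of Epas1 and both windows of Vegfa held none. Of all 33469 windows of this length, 41.6% held at least 1 match, 8.15% held at least 3 and 1.52% held at least 5. GC content was 64.7% in the Ankrd37 window and 44.7% in that of Egln3. A match is a description of the sequence and not a binding site.

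A single design and scan served the uninjured and day 21 arteries, whereas day 7 was hybridised to a different design and read in a separate scan with newer software. Day 7 and array design therefore cannot be told apart. Values are log2 signals relative to the 75th percentile of the array, taken over all probes for day 21 against uninjured and over the 10583 probes on all arrays wherever day 7 enters. That percentile was 49.6 intensity units uninjured and 135 at day 21 over all probes. On the shared probes it was 127 uninjured, 230 at day 7 and 384 at day 21. The figure after ± is the technical SD from replicate spots. "Higher" and "lower" below mean 2-fold or more between 2 arrays on which the probe was well above background. The balance of the whole table moved with the scaling: of genes past 2-fold, 39.9% were higher at day 21 than uninjured, against 77.1% with median scaling, 55.6% with quantile normalization, 64.9% with cyclic loess, 74.9% with normexp background correction and 57.4% in the authors' deposited table. For day 7 against uninjured the share was 49.8%, and it was 26.3% with median scaling, 20.1% in the authors' deposited table and 5.45% with scaling over all probes of the own design. For day 21 against day 7 it was 34.9%, and 65.9%, 59.2% and 57.2% with median, quantile and loess scaling, 86.4% in the authors' deposited table and 95.2% with own-design scaling. The median log2 ratio of all genes moved with it, at -0.20 for day 21 against uninjured and 0.28 with median scaling, and at -0.01 for day 7 against uninjured, -0.39 with median scaling and -1.23 with own-design scaling.

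At day 21, Ankrd37, Hif1a and Adm were higher than in the uninjured artery and Egln3 was lower. Vegfa and Bnip3 differed by less than 2-fold. Of the 6 members measured on both arrays, 3 were thus higher and 1 lower, where 9.11% of the 9420 genes measured were higher and 13.7% lower. The median over the 6 members was a log2 ratio of 0.75, against -0.20 over all genes. Relative to that median of all genes the log2 ratios were 2.48 for Ankrd37, 1.30 for Hif1a, 1.28 for Adm, 0.62 for Bnip3, 0.02 for Vegfa and -0.84 for Egln3. The artery was measured whole, so fewer cells of a type and less RNA per cell cannot be told apart.

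Markers of the cells in the wall differed between the arrays as well. Smooth muscle markers were present in the uninjured artery, with 7 of 7 well above background, and 7 of 7 were lower at day 21. Their summed signal, in units of the array's 75th percentile, was 121 at day 21 and 607 in the uninjured artery. On shared probes 3 of 4 were lower at day 7, with sums of 37.2 at day 7 and 172 uninjured. Here and below, sums for day 7 against uninjured are on shared probes, and those for day 21 against uninjured on all probes. The scales of these sums differ, so they are not to be compared between the times. Macrophage markers were higher for 7 of 7 measured genes at day 21, with sums of 1427 at day 21 and 34.8 uninjured, and for 4 of 4 at day 7, with sums of 83.3 at day 7 and 5.66 uninjured. Of the 9 macrophage markers, Itgam was well above background at day 21 and not in the uninjured artery, and Cd163 on neither array. Endothelial markers were higher for 3 of 4 genes at day 21, with sums of 17.0 at day 21 and 3.76 uninjured, and for 3 of 3 at day 7, with sums of 4.32 at day 7 and 1.21 uninjured, while Tek was well above background at both times after injury and not in the uninjured artery. Of the 2 Tie1 probes of the day 21 comparison, 1 was well above background in the uninjured artery too, at a log2 ratio of 0.97. For macrophage markers on shared probes the sum was 147 at day 21 and 83.3 at day 7, with 1 of 5 genes higher at day 21. For endothelial markers on shared probes it was 5.73 at day 21 and 4.32 at day 7, with all 5 genes under 2-fold. For smooth muscle markers it was 28.2 at day 21 and 37.2 at day 7, with 2 of 4 genes lower at day 21. Schwann cell markers were higher for 3 of 3 measured genes at day 7, with a median log2 ratio of 4.10 and sums of 16.3 at day 7 and 1.09 uninjured. At day 21, 1 of 4 was lower than uninjured, with sums of 1.97 at day 21 and 3.52 uninjured, and 3 of 3 were lower than at day 7, with sums on shared probes of 0.619 at day 21 and 16.3 at day 7. Neutrophil markers were higher for 2 of 2 genes at day 7, with sums of 1.85 at day 7 and 0.358 uninjured, and for none of 2 at day 21, with sums of 1.62 at day 21 and 0.979 uninjured. On shared probes their sum was 0.482 at day 21 and 1.85 at day 7, with 2 of 2 genes lower at day 21. Of the adipocyte markers, Fabp4, which macrophages and endothelium also express, was higher at day 21 (3.91 ± 0.16) and at day 7 (1.81 ± 0.15), and Adipoq was at 0.43 ± 0.24 at day 21. Fibroblast markers were higher for 1 of 4 genes at day 7, with sums of 332 at day 7 and 164 uninjured, and for 2 of 4 at day 21, with sums of 717 at day 21 and 1101 uninjured. On shared probes the fibroblast sum was 165 at day 21 and 332 at day 7, with 2 of 4 genes higher at day 21 and 1 lower. Erythroid markers were higher for 1 of 2 genes at each time, with sums of 1.08 at day 7 and 0.262 uninjured on shared probes, and of 2.02 at day 21 and 0.671 uninjured. The Schwann cell marker S100b was not well above background on any array, nor was the adipocyte marker Lep on the day 21 or uninjured array. The part of these cells in the values of the HIF pathway genes was not tested.

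**Figure D1:**
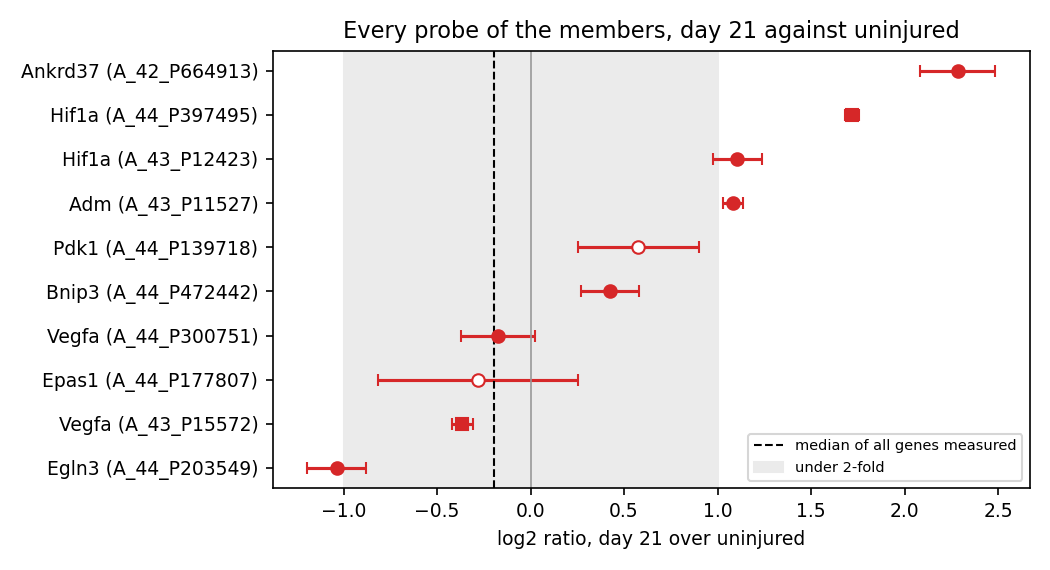
Log2 ratio of day 21 over uninjured (horizontal axis) for each of the 10 member probes on the common design. Bars are the technical SD, circles the probe that stands for its gene, squares a second probe, and open circles probes not well above background on the uninjured array. Ankrd37 lies at 2.28, both Hif1a probes lie above 1 and Egln3 lies at -1.04.

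Hif1a encodes the alpha subunit of HIF-1. Its brighter probe had a scaled log2 signal of 5.14 at day 21 and 4.03 in the uninjured artery, a log2 ratio of 1.11 ± 0.13 or 2.15-fold. A second Hif1a probe, printed 10 times on each array, had spots between 1405 and 1700 intensity units at day 21 and between 169 and 191 in the uninjured artery. Its scaled log2 signals were 3.54 at day 21 and 1.82 in the uninjured artery, a log2 ratio of 1.72 ± 0.04 or 3.29-fold. Both probes of the gene were therefore higher at day 21, by amounts that differed by more than the technical SD. Hif1a stayed higher in 7 of 7 processing alternatives, with log2 ratios of 1.105 to 1.73.

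At day 7 Hif1a was read by a different probe, which was well above background at 200.9 intensity units and has no counterpart on the other arrays. In the authors' deposited table that probe has log2 differences of -2.87 for day 7 minus uninjured and 1.19 for day 21 minus uninjured. The probe is absent from the design of the uninjured and day 21 arrays analysed here, so the source of those values for these arrays could not be settled.

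Epas1 encodes HIF-2alpha, the alpha subunit known for its role in endothelial and other specialised cells. Its single probe was dim throughout, with 8.75 intensity units in the uninjured artery, where it was not well above background, 30.4 at day 7 and 19.7 at day 21. On probes common to all arrays the scaled log2 signals were -3.86, -2.92 and -4.29, with technical SDs of 0.41, 0.55 and 0.34. Epas1 at day 7 was 1.91-fold above its dim uninjured signal with this scaling, a log2 ratio of 0.94 ± 0.68. The direction turned with own-design scaling, where the scaled log2 signals were -2.79 at day 7 and -2.50 uninjured, and with normexp, where the log2 ratio was -0.23. At day 21 Epas1 was at -0.28 ± 0.53 relative to uninjured, and the sign turned with median scaling (0.20), quantile normalization (0.35) and cyclic loess (0.46), so no fold is given. Against day 7, day 21 had a log2 ratio of -1.36 ± 0.65, which was lower in only 3 of 8 alternatives and 0.0059 with own-design scaling.

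Egln3 encodes prolyl hydroxylase PHD3, a target of HIF that feeds back on the alpha subunits. Its probe had 223 intensity units in the uninjured artery, 173 at day 7 and 297 at day 21. Before scaling, day 21 thus lay above uninjured. The scaled log2 signals on shared probes were 0.82 in the uninjured artery, -0.41 at day 7 and -0.37 at day 21. After scaling, both injured arteries lay below the uninjured one. Day 21 was at 0.05 ± 0.13 relative to day 7 with this scaling, at 0.98 in the authors' deposited table and at 1.42, past 2-fold, with own-design scaling. The log2 ratio to uninjured was -1.23 ± 0.13 at day 7 (2.35-fold lower). On all probes it was -1.04 ± 0.16 at day 21 (2.05-fold lower). The day 7 call was kept in 8 of 9 alternatives and was lost with normexp, at -0.85. The day 21 call was kept in 6 of 9 and was lost with median scaling (-0.56), normexp (-0.45) and cyclic loess (-0.96), always with the sign unchanged.

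**Figure D2:**
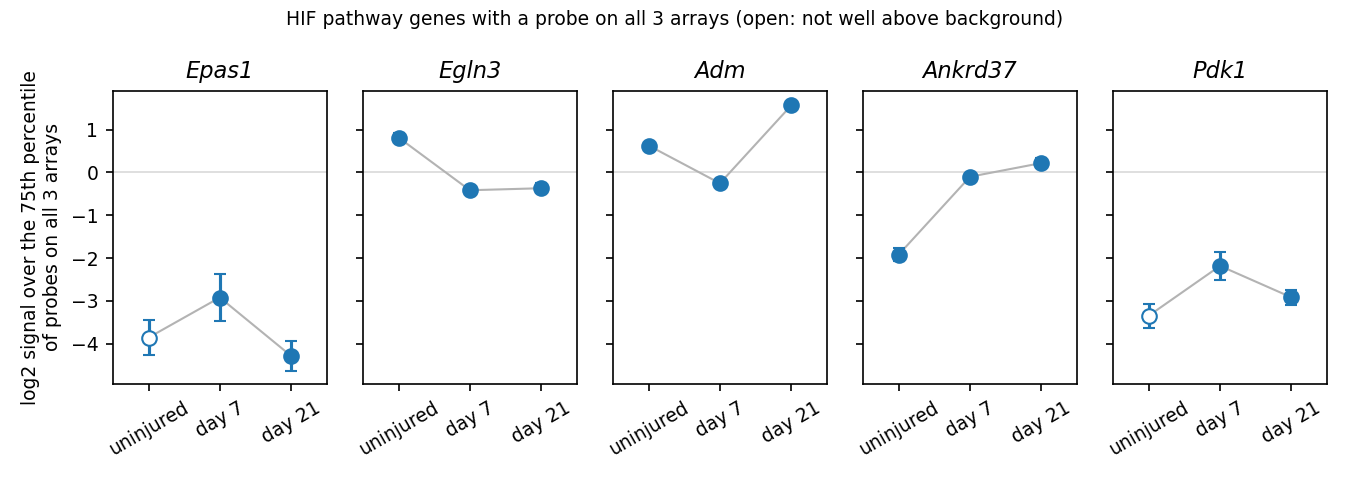
Scaled log2 signal (vertical axis, relative to the 75th percentile of probes on all 3 arrays) of the 5 members with a shared probe, in the uninjured, day 7 and day 21 arteries. Points are 1 array each, bars the technical SD where wider than the point, and open points are not well above background. Levels are to be compared between arrays within a panel and not between genes. Ankrd37 lies above its uninjured level on both injured arrays, Egln3 lies below its own on both, and Adm is low at day 7 and high at day 21.

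Adm encodes adrenomedullin, a vasodilator peptide whose gene is a HIF target. Its probe was printed 10 times on all arrays, with spots of 169 to 218 intensity units in the uninjured artery, 177 to 205 at day 7 and 931 to 1276 at day 21. Before scaling, the spots of the uninjured and day 7 arrays overlapped and those of day 21 lay above both. After scaling on shared probes the log2 signals were 0.63, -0.25 and 1.57, so day 7 was the lowest array and day 21 the highest. At day 21 the log2 ratio to uninjured was 1.08 ± 0.05 (2.12-fold higher). This call was kept in 7 of 9 alternatives and fell just under 2-fold on shared probes (0.94) and in the authors' deposited table (0.97).

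At day 7 Adm was at -0.88 ± 0.04 relative to uninjured, which is under 2-fold. It passed 2-fold downward with median scaling (-1.26), in the authors' deposited table (-1.77) and with own-design scaling (-2.10), and the sign was negative in 9 of 9 alternatives. Between the injured arteries Adm at day 21 was 3.53-fold above day 7 (1.82 ± 0.04), and it was higher in 9 of 9 alternatives.

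Vegfa encodes vascular endothelial growth factor A, the main HIF-driven signal for vessel growth. Its brighter probe had scaled log2 signals of -0.15 at day 21 and 0.03 in the uninjured artery, a log2 ratio of -0.17 ± 0.20. A second probe, printed 10 times, had spots of 32.6 to 38.9 intensity units at day 21 (8 spots, after 2 were left out for outlier flags) and 14.7 to 19.6 in the uninjured artery. Its log2 ratio was -0.37 ± 0.06. Neither probe was 2-fold apart, and the sign of the gene's value turned with median scaling (0.31) and normexp (0.03). The day 7 array carried 4 other Vegfa probes, all well above background, at 1869, 54.0, 46.1 and 33.6 intensity units, and none of them can be set against the other arrays.

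Ankrd37, an ankyrin repeat gene known as a direct HIF-1 target, had the highest log2 ratio to uninjured of the members measured, at day 7 and at day 21. Its probe had 33.6 intensity units in the uninjured artery, a mean of 215.0 over 10 spots at day 7 (202 to 228) and 446.8 at day 21. The scaled log2 signals on shared probes were -1.92, -0.10 and 0.22, so that both injured arteries lay above the uninjured one. At day 7 the log2 ratio to uninjured was 1.82 ± 0.16, or 3.53-fold. At day 21, on all probes, it was 2.28 ± 0.20, or 4.87-fold, above 97.3% of all genes measured.

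The day 21 value of Ankrd37 was higher in 9 of 9 alternatives, with log2 ratios of 1.59 to 2.76. The day 7 call was kept in 7 of 9 and was lost with normexp (0.98) and own-design scaling (0.60). Day 21 against day 7 was 0.32 ± 0.12, under 2-fold, and it passed 2-fold with own-design scaling (1.69) and in the authors' deposited table (1.23).

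By distance over the 3 arrays after centring each gene on its own mean, the genes of 5171 whose values lay nearest to those of Ankrd37 were Amdhd2 (distance 0.06 on the log2 scale), Pstpip1 (0.08) and Bcl3 (0.13). With 3 arrays such likeness is a description only.

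Bnip3 encodes a mitochondrial outer membrane protein that promotes removal of mitochondria by autophagy. It had scaled log2 signals of 2.50 at day 21 and 2.07 in the uninjured artery, a log2 ratio of 0.43 ± 0.16, and stayed under 2-fold in 7 of 7 alternatives. At day 7 it was read by another probe, at 1162 intensity units, with no counterpart on the other arrays. In the authors' deposited table that probe has log2 differences of 0.94 for day 7 minus uninjured and 0.34 for day 21 minus uninjured. For day 21 minus day 7 it has -0.60. The source of its values for the uninjured and day 21 arrays could not be settled.

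Pdk1 encodes the pyruvate dehydrogenase kinase that HIF-1 uses to divert pyruvate from mitochondria. Its probe had 12.5 intensity units in the uninjured artery, where it was not well above background, 50.7 at day 7 and 50.8 at day 21. With shared-probe scaling it was 2.24-fold above its dim uninjured signal at day 7, a log2 ratio of 1.16 ± 0.43. This difference was not seen with own-design scaling, where the scaled log2 signals were -2.05 at day 7 and -1.99 uninjured, or with normexp, where they were -1.43 at day 7 and -1.42 uninjured. At day 21 Pdk1 was 1.49-fold above its dim uninjured signal (log2 ratio 0.58 ± 0.32). This log2 ratio was 1.06 with median scaling, 1.05 with cyclic loess, 0.95 with quantile normalization and -0.46 with normexp. On shared probes day 21 lay at -0.73 ± 0.37 relative to day 7, which is under 2-fold, and with own-design scaling the direction turned (0.64).

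At day 7, then, Ankrd37 was higher than in the uninjured artery, Egln3 was lower and Adm was under 2-fold, and these were the 3 members measured on both arrays. Of the 5249 genes measured, 16.1% were higher and 16.3% lower. The median of the 3 members was -0.88, against -0.01 over all genes. Between day 21 and day 7, of the 5 members measured on both, Adm was higher and Epas1 lower, where 10.7% of 5641 genes were higher and 20.0% lower. Their median was 0.05, against -0.19 over all genes. Relative to the median of all genes, which the choice of a scaling constant leaves in place, the day 7 log2 ratios to uninjured were 1.83 for Ankrd37, -0.87 for Adm and -1.22 for Egln3. The 3 comparisons share arrays pairwise.

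**Figure D3:**
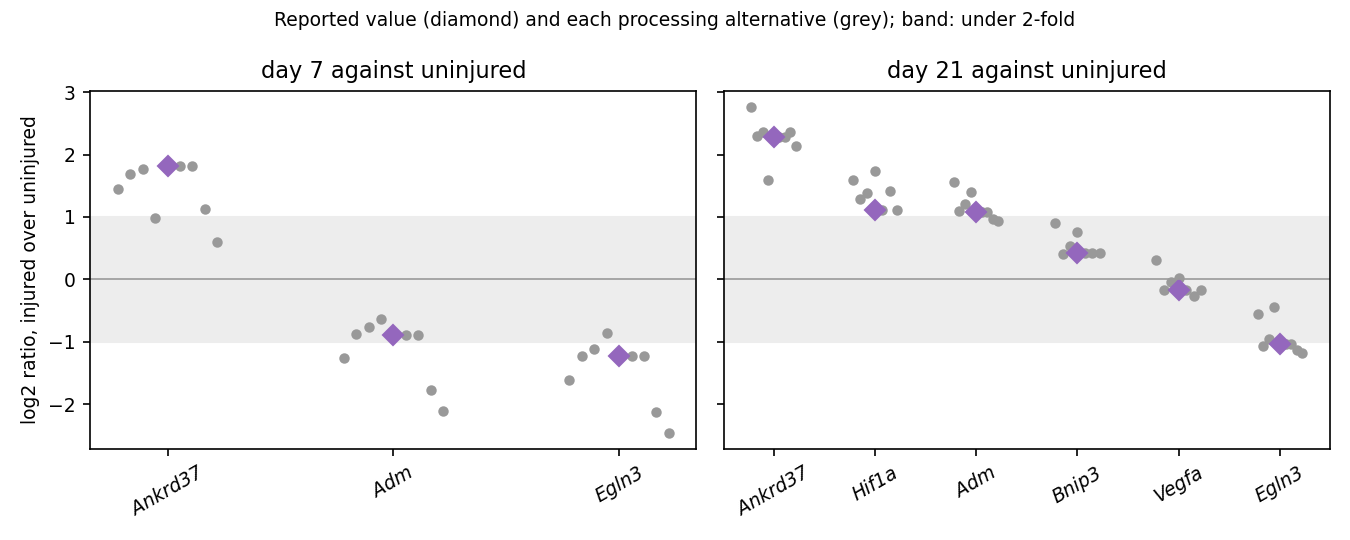
Log2 ratios of injured over uninjured (vertical axis) for the members measured on both arrays, at day 7 (left panel) and day 21 (right panel). Diamonds are the reported values, grey points the processing alternatives, and the band is the range under 2-fold. For day 21, Ankrd37 and Hif1a stay above the band under each alternative run, whereas Egln3 and Adm sit at its edges.

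Of 12 genes of HIF subunits and regulators measured at day 21 against uninjured, 1 was higher and 1 lower, Hif1a and Egln3, with a list median of -0.52 (-0.65 to -0.01 over the alternatives). Arnt, the beta subunit, was at -0.72 ± 0.44, Hif1an, the asparaginyl hydroxylase that blocks the alpha subunits' transactivation, at -0.73 ± 0.48 and Elob, a part of the VHL ubiquitin ligase, at -0.76 ± 0.13. Cited2, which competes with HIF for its coactivators and is itself a HIF target, was at 0.75 ± 0.13 at its brightest probe of 3. The log2 ratios of its probes well above background ranged down to 0.07, and on shared probes it was at -0.08. Egln2, a further prolyl hydroxylase, was at 0.03 ± 0.17. At day 7 the 6 genes measured had a median of -0.42, with Egln3 lower and none higher. Cited2 was at -0.98 ± 0.89 on a dimmer probe than its brightest one at day 21. Bmal1, a relative of Arnt, was at -0.83 ± 0.13 and Crebbp, a coactivator of HIF, at 0.76 ± 0.42. Arnt was well above background only in the uninjured artery, with a bound of 2.08-fold lower at day 7. Epas1 and Arnt2 were so only at day 7, with bounds under 2-fold.

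Further HIF targets outside glycolysis were mixed. For this and the other lists, the shares over all genes were 9.11% higher and 13.7% lower at day 21. At day 7 they were 16.1% and 16.3%. At day 21, 9 of 29 measured were higher and 2 lower, with a median of 0.10. The highest were Hmox1 (7.33 ± 0.06), which degrades haem, Igfbp3 (3.76 ± 0.19), a binding protein of insulin-like growth factors, and Cxcr4 (3.57 ± 0.20) with its ligand gene Cxcl12 (2.39 ± 0.14). Wsb1, which encodes a part of a ubiquitin ligase, was lower at -1.03 ± 0.15. At day 7, 4 of 21 were higher, namely Hmox1 (2.88 ± 0.05), Cxcl12 (2.34 ± 0.16), Cxcr4 (2.13 ± 0.18) and the transferrin receptor gene Tfrc (1.77 ± 0.16), and 1 was lower. The day 7 median was 0.31, and it ran from -0.91 to 0.39 over the alternatives. A further 4 genes of the list were well above background at day 7 and not in the uninjured artery, 3 of them with a bound of 2-fold or more. No gene of this list was so only in the uninjured artery, unlike in lists named above and below. The share of such genes over all genes was not computed.

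Glycolysis enzymes and glucose transporters, many of them HIF-1 targets, had 6 of 15 genes higher and 1 lower at day 21, with a median of 0.53 (-0.10 to 1.04). The lowest of the 6 higher genes was at 1.005 ± 0.13, within its technical SD of the 2-fold mark. Ldha, which makes lactate, was at 1.32 ± 0.05 and the enolase gene Eno1 at 1.17 ± 0.13, while Pfkm, the muscle phosphofructokinase, was lower at -1.13 ± 0.13. At day 7, 1 of 6 was higher, the hexokinase gene Hk1 (2.08 ± 0.14), and none was lower. The day 7 median was -0.10 (-1.32 to 0.14 over the alternatives). The glucose transporter gene Slc2a3 was well above background only in the uninjured artery, with a bound of 3.51-fold lower at day 7.

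**Figure D4:**
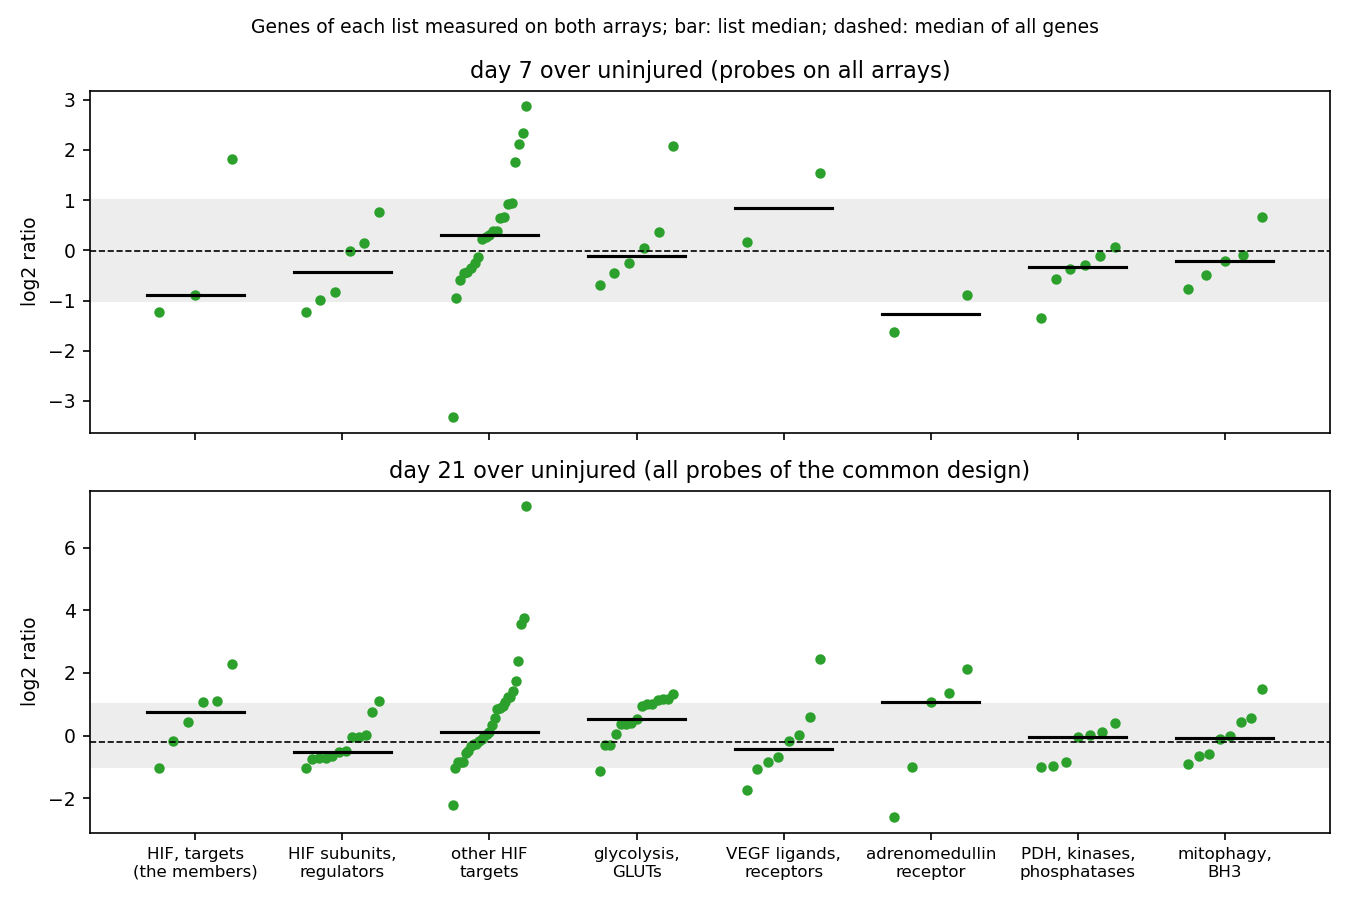
Log2 ratios of day 7 over uninjured (upper panel) and day 21 over uninjured (lower panel) for the genes of each list measured on both arrays. Points are genes, bars the list medians, the dashed line the median of all genes measured and the band the range under 2-fold. At day 21 the medians run from -0.52 for HIF subunits and regulators to 1.08 for the adrenomedullin list. At day 7 they run from -1.26 (adrenomedullin list) to 0.85 (VEGF list), each over 2 genes. Lists include the members that belong to them, and 1.08 is the ratio of Adm itself.

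In the VEGF family the receptor gene Kdr, a mark of endothelium, was higher at day 21 (2.46 ± 0.17, 5.49-fold) and at day 7 (1.53 ± 0.15). The co-receptor gene Nrp2 (-1.73 ± 0.44) and the lymphatic receptor gene Flt4 (-1.06 ± 0.46) were lower at day 21. The ligand genes Vegfb (-0.67 ± 0.19), Vegfc (0.58 ± 0.14) and Pgf (-0.83 ± 0.17) were under 2-fold at day 21, as was Vegfc at day 7 (0.17 ± 0.13). Of 8 genes measured at day 21, 1 was higher and 2 lower (median -0.42), and of 2 at day 7, 1 was higher and none lower (median 0.85).

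For adrenomedullin, Ramp2, the co-receptor that makes the calcitonin receptor-like receptor respond to the peptide, was higher at day 21 (2.11 ± 0.19, 4.33-fold). Ramp1, which makes the same receptor respond to calcitonin gene-related peptide, was lower (-2.61 ± 0.13), and Calca, which encodes that peptide, was 1.99-fold below uninjured, just under the 2-fold mark, with a technical SD of 0.32 on the log2 scale. The atypical receptor gene Ackr3, whose product binds CXCL12 and adrenomedullin, was higher at day 21 (1.35 ± 0.17) and lower at day 7 (-1.64 ± 0.32). The receptor gene Calcrl itself was not well above background on either the day 21 or the uninjured array. Ramp3, of the same list, was well above background on both injured arrays and not on the uninjured one. Against its dim uninjured signal it was at 2.78 ± 0.41 (6.85-fold) at day 7 and 1.02 ± 0.44 (2.03-fold) at day 21. It is not among the genes counted next. Of 5 genes of this list measured at day 21, Adm included, 3 were higher and 1 lower. The median of 1.08 is the ratio of Adm itself. Of 2 measured at day 7, Adm and Ackr3, none was higher and 1 was lower (median -1.26).

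Around Pdk1, the pyruvate dehydrogenase list had none of 7 genes higher and 1 lower at day 21 (median -0.04). The lower gene was the phosphatase gene Pdp1 (-1.01 ± 0.15), which was also the 1 lower gene of 6 at day 7 (-1.35 ± 0.13, list median -0.34). The sister kinases Pdk2 (-0.84 ± 0.13) and Pdk3 (0.39 ± 0.21) were under 2-fold at day 21. Around Bnip3, none of 5 mitophagy and BH3 genes passed 2-fold at day 7 (median -0.21), with Bnip3l, the nearest relative of Bnip3, at 0.67 ± 0.13. At day 21, 1 of 8 was higher (median -0.07): Bcl2l1 at its brightest probe of 4 (2.82-fold, with a technical SD of 0.17 on the log2 scale), although the log2 ratios of its probes well above background ranged down to -0.34. In that list Fundc1 was at 0.57 ± 0.17 and Bnip3l at -0.03 ± 0.13 at day 21.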

How the data were processed

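Total RNA of whole carotid arteries was hybridised to one-colour Cy3 Agilent rat arrays, per the labels. Spot intensity values came, per the file headers, from Agilent Feature Extraction 11.0.1.1 at day 7 and 10.7.3.1 otherwise, the release in the submitters' processing notes. The deposited signal had its background subtracted and spatial trend removed per array, with no normalization across arrays, per the file headers. The authors' deposited table gives 9260 probes as log2 values, normalized in a way not given in the sources used here; 3957 of its rows are probes that are not on the uninjured and day 21 design.

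Control spots and outlier-flagged spots (0.242% uninjured, 1.46% at day 7 and 0.274% at day 21) were left out, spots of a probe were averaged as log2, and the 75th percentile was subtracted. Probes well above background made up 59.8%, 76.5% and 66.7%, and no spot was saturated. The number of arrays limits the precision. Accessions were matched to RefSeq symbols of the GRCr8 table, and the brightest probe stood for a gene. The technical SD of a probe came from its own spots where at least 5 were printed, otherwise from the 25 replicated probes nearest in signal. Where a probe cleared background on 1 of the arrays compared, a bound was taken over the higher of its own dim signal and the lowest signal well above background there. For Epas1, Pdk1 and Ramp3 this was the dim signal itself, so the plain ratio is given with its technical SD. The ratio calculation was checked on simulated arrays with a constant shift and all probes set well above background. These had no difference in design and no dim probes, so the check says nothing of how scaling acts on the real arrays.

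The members and lists were chosen with earlier results of these data known. All members were named; from each context list up to 4 genes furthest from 0 in each direction, or any gene of lists of 12 or fewer. One gene counted in a context list is not reported here by name. Python 3.11.15, pandas 2.3.3, R 4.3.3 and limma 3.58.1 (normexp with offset 50, cyclic loess) were used. The files held no mean spot signal, so normexp was run on spot medians. Alternatives were median scaling, quantile normalization, cyclic loess, normexp, outlier spots kept, the mean over a gene's probes, no filter on dim probes, the deposited table, and scaling on own-design or shared probes.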

Additional observations from a re-analysis of the deposited data

Results flagged for a closer look

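Adm differed in direction between the 2 times after injury: its log2 ratio to uninjured was 1.08 at day 21 and -0.88 at day 7, and day 21 lay 1.82 above day 7 on shared probes. Ackr3 did the same, with 1.35 at day 21, -1.64 at day 7 and 2.84 between the injured arteries. Each direction rests on 1 array per time, the difference was not tested, and array design cannot be told apart from day 7.

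Signals of 3 members on the day 7 array came from probes that the other arrays lack, and entered no comparison. The Hif1a probe read 200.9 intensity units and the Bnip3 probe 1162. The 4 Vegfa probes read 1869, 54.0, 46.1 and 33.6 intensity units. All 6 were well above background.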

How the results depend on the processing

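No paired analysis was possible because each group held 1 array. For the same reason no array could be left out. Of members at day 7 against uninjured, 1 was 2-fold or more higher and 1 lower; 2 were lower with median scaling and in the deposited table, none was higher or lower with normexp (0 and 0), 2 were higher without a filter on dim probes, and own-design scaling gave 0 higher and 2 lower. At day 21 against uninjured, with 3 higher and 1 lower, 0 were lower with median scaling, cyclic loess and normexp, and 1 was higher in the deposited table and on shared probes, where only 3 members were measured. At day 21 against day 7, with 1 higher and 1 lower, 0 were lower with median scaling, quantile normalization, cyclic loess, normexp, own-design scaling and in the deposited table, and 2 were higher in that table and 3 with own-design scaling. The other 34 counts of members under an alternative stayed within 1.5 times. Over all genes, the lower share at day 7 against uninjured was 27.2% with median scaling, 40.5% in the deposited table and 59.4% with own-design scaling. Without a filter on dim probes 23.5% were higher. With normexp 6.44% were higher and 9.72% lower, and with own-design scaling 3.43% were higher. At day 21 against uninjured, 5.19%, 6.49% and 2.82% were lower with median scaling, cyclic loess and normexp. In the deposited table and on shared probes, 12.6% and 9.05% were higher. At day 21 against day 7, 39.6% were higher in the deposited table and 57.6% with own-design scaling, while 6.26% and 2.87% were lower. With median scaling, quantile normalization, cyclic loess and normexp, 11.2%, 11.7%, 11.9% and 13.4% were lower in that comparison. Among values of 2-fold or more, those that turned sign were Epas1 at day 21 against day 7 (0.0059 with own-design scaling), Bcl2l1 at day 21 (-0.17 as a mean over probes, -0.48 on shared probes), the median of the adrenomedullin list at day 21 (-0.65 without the filter on dim probes, over 9 genes) and Pdk1 at day 7 against its dim uninjured signal (-0.0055 with normexp, -0.056 with own-design scaling). Values under 2-fold turned sign more often. Of the 6 such values of members measured on both arrays, 3 turned: Vegfa at day 21 (0.31 with median scaling, 0.03 with normexp), and at day 21 against day 7 Pdk1 (0.64 with own-design scaling) and Egln3 (-0.01 with cyclic loess and normexp). The median of the members turned at day 7 without the filter on dim probes, and between the days with cyclic loess and normexp. Of the 18 list medians under 2-fold, 11 turned under at least 1 alternative, among them those of the VEGF list at day 7 (down to -0.37) and day 21 (up to 1.44) and of the other HIF targets at day 7 (down to -0.91), and so did 7 of the 18 named context genes under 2-fold. The cause was not tested. Of the counts of the context lists under an alternative, 247 stayed within 1.5 times and 131 did not. The median of the members ran from -2.10 to 0.94 at day 7, from 0.50 to 1.23 at day 21 and from -0.01 to 1.42 between the days. Under own-design scaling, 180 genes were higher and 3120 lower at day 7, against 845 and 853. Signal over background limits Epas1 and Pdk1.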
